A study of Xenopus laevis with 12 samples.

Results

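Genistein-treated embryos of the frog Xenopus laevis were compared with control embryos across all genes of the deposited count table. The comparison takes 6 of the 12 libraries of the series, chosen by their treatment labels: 3 genistein libraries and 3 control libraries. Of 18892 genes in the table, 18791 passed the filter on low counts and were tested, and 101 did not. Whole embryos were collected at stage 9.5, and each library was made from poly-A RNA of 3 pooled embryos. Per the series text, treatment of the genistein embryos was at the 4-cell stage, and the control embryos carry only the label control. The other 6 libraries, 3 treated with BIO and 3 with Chiron, both used in the study as Wnt activators, enter here because they share the estimates of spread and of the slope on the mitochondrial share of counts. The sources used here do not give the dose of genistein, what the control embryos received or the strain of the frogs. Nothing in the labels ties the replicates to separate clutches, so the p-values describe variation between these libraries only, and that variation may be technical.

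Genistein, an isoflavone from soy, inhibits protein tyrosine kinases, and it is also known to act on topoisomerase II and to bind estrogen receptors. At first the frog embryo runs on RNA that the mother laid down in the egg, and its cells divide fast with short cycles that lack gaps. Around the mid-blastula the embryo's own genome switches on, the cycles lengthen, and tyrosine kinase signals such as FGF, together with Nodal, BMP, Wnt and Notch signals, pattern the germ layers. Xenopus laevis is an allotetraploid, and many genes are present as an L and an S homeolog on the chromosomes of its subgenomes.

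The libraries differed within both groups in what they held. Mitochondrially encoded genes took 14.1%, 1.46% and 8.37% of the counts in genistein replicates 1 to 3, against 13.5%, 0.946% and 4.23% in control replicates 1 to 3. The groups overlapped in this share, and the difference in means was smaller than the spread within either group (exact permutation test, two-sided, p = 0.7, where 0.1 is the smallest p that 3 against 3 allows). Ribosomal protein genes took 0.512%, 0.172% and 0.448% of the counts in genistein embryos, against 0.449%, 0.201% and 0.243% in control embryos (exact permutation test, two-sided, p = 0.8). Genistein 1, genistein 3 and control 1 were thus high on both measures, and the same 3 libraries lay apart on the first principal component. The totals were 11091927 to 13259764 counts in genistein and 13158728 to 14799872 in control libraries, so that 3 counts, the limit that a count of 0 allows, correspond to 0.203 to 0.270 CPM (counts scaled to a library total of 1000000). Because these shares varied so much inside each group, every effect was fitted both without a covariate and with log2 of the percent of mitochondrial counts as covariate. Reads shared by near-identical homeologs or tandem copies could have been split between them, which makes single-copy values uncertain. In whole embryos, fewer cells of a type and less RNA per cell cannot be told apart.

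**Figure D1:**
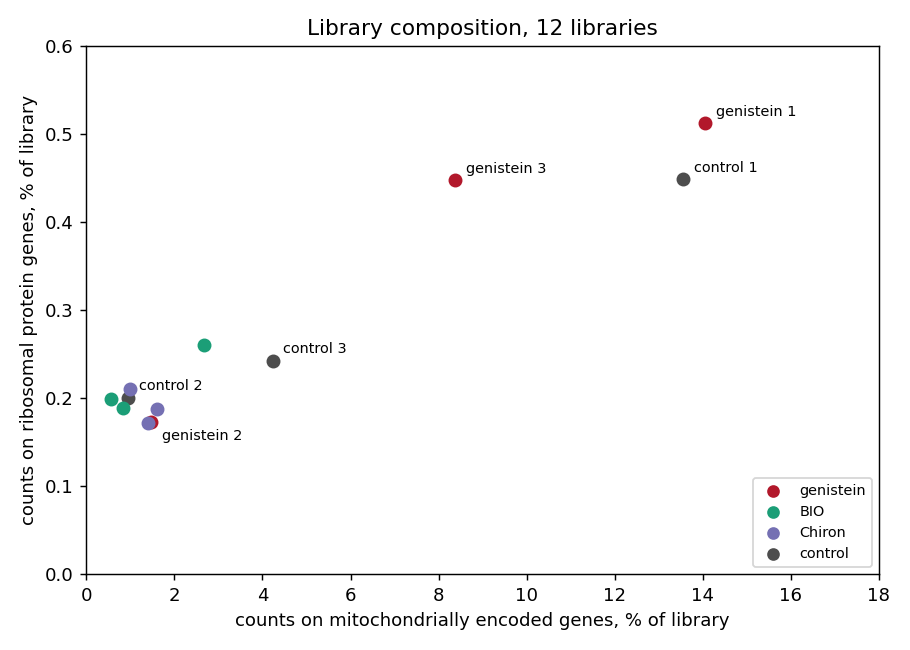
Share of counts on mitochondrially encoded genes (x axis, percent) against the share on ribosomal protein genes (y axis, percent) in 12 libraries, 1 point each, coloured by group. Genistein 1, genistein 3 and control 1 lie at the upper right with 8.37% to 14.1% mitochondrial counts, and genistein 2 and control 2 lie among the other libraries at the lower left.

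Genistein embryos had more genes below control than above it in both edgeR fits of 12 libraries, by a wide margin without the covariate. With the covariate, which direction had more genes changed with the test and the libraries used. Without the covariate 68 genes rose (0.362% of those tested) and 564 fell (3.00%), at a Benjamini-Hochberg adjusted p under 0.05 in edgeR's quasi-likelihood test. With the covariate 1612 rose (8.58%) and 2042 fell (10.9%), and all 632 genes called without it were called in the same direction with it. The effects were mostly small: the median log2 fold change was 0.51 among the 68 higher and -0.83 among the 564 lower genes, and 0.41 and -0.59 among those called with the covariate. With the covariate 53 genes rose and 296 fell by at least 2-fold. The covariate lowered the common biological coefficient of variation to 10.96%, against 22.4% without it, and the median standard error to 0.14 on the log2 scale, against 0.21.

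The share itself tracked much of the transcriptome. The slope on log2 mitochondrial percent was called positive for 4917 genes (26.2%) and negative for 5016 (26.7%). Of the 632 genes called without the covariate, 430 had no called slope, and of the 3022 genes called only with it, 1357 did not overlap between the groups in CPM. Over all genes tested, 1405 had every genistein library above every control library (7.48%) and 1817 had every genistein library below (9.67%). In a fit of the 6 genistein and control libraries alone, with the covariate, 440 genes rose (2.40% of 18370) and 1293 fell (7.04%), and 1707 of these 1733 were also called in the 12-library covariate fit. The same 6 libraries without the covariate gave a single call, ets2.L (edgeR quasi-likelihood test), with 1726 genes at an unadjusted p under 0.05 and 1733 called once the covariate was added.

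**Figure D2:**
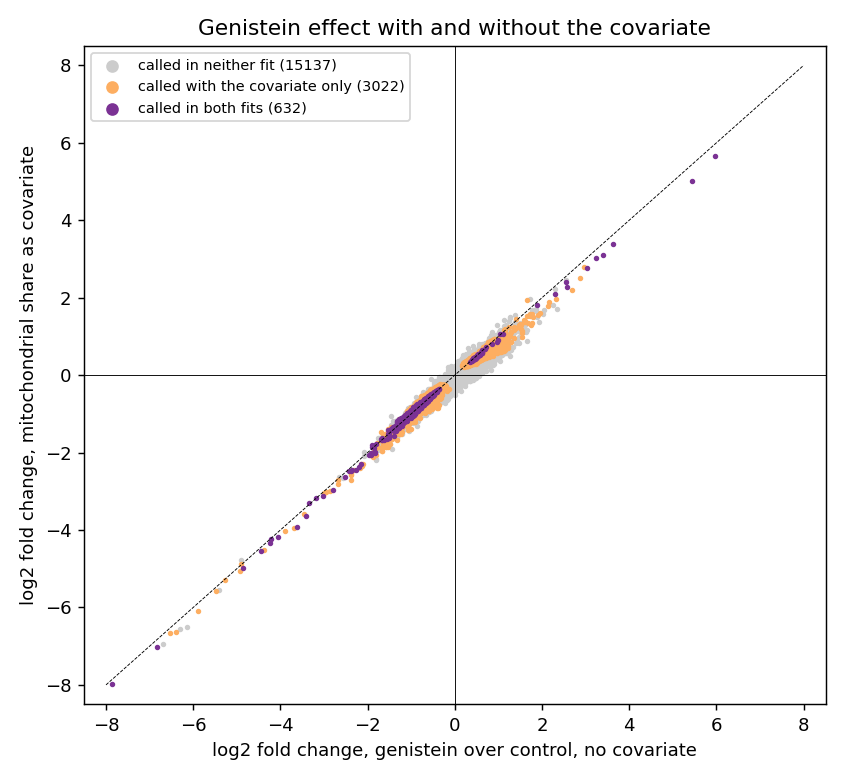
Log2 fold change of genistein over control for each tested gene without a covariate (x axis) and with the mitochondrial share as covariate (y axis). The 632 genes called in both fits lie near the dashed line of equal values and mostly below 0, and the 3022 genes called only with the covariate lie on both sides.

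Which libraries entered the fit moved these counts. Without the covariate, leaving out genistein 2 raised them to 2317 higher and 2440 lower, and leaving out control 1 gave 242 higher and 823 lower. Fewer genes were called without genistein 1 (11 higher, 308 lower), genistein 3 (5 and 176), control 2 (6 and 189) or control 3 (5 and 215). Leaving out a BIO or Chiron library gave 17 to 47 higher genes, with 17 without BIO 1 or Chiron 3, 21 without Chiron 2, 23 without BIO 3, 27 without BIO 2, and 358 to 440 lower genes. With the covariate, 451 rose and 1204 fell without control 1, and the higher count was 797 without control 3, 837 without genistein 3 and 1046 without genistein 1. With genistein 1, genistein 3 and control 1 all left out, so that genistein 2 alone stands for its group and its spread is taken from the remaining libraries, 339 genes rose and 970 fell in the fit without covariate. None of the 632 genes had the opposite sign there. Of these genes 631 did not overlap between the groups, so genistein 2 already lay beyond control 2 and control 3. Their sign in that fit was thus largely fixed beforehand. Of the genes called with the covariate, 102 of the 1612 higher ones and 2 of the 2042 lower ones had the opposite sign. Scaling by library totals shifted the median of all genes by more than 0.1, to -0.09 on the log2 scale, against 0.03 with TMM. It turned the split of the covariate calls to 505 higher and 2609 lower, against 1612 and 2042 with TMM. DESeq2 size factors as scaling gave a nearly even split of the covariate calls, 1882 higher and 1931 lower. The split was reversed with DESeq2 as the test (2193 higher, 2046 lower) and without genistein 2 (2369 higher, 2223 lower).

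The largest increases among genes called in both fits were in genes with hardly any transcript in control embryos. Polo-like kinase 2 is a stress-regulated relative of the mitotic kinase Plk1, and its homeolog plk2.L had 12.6, 3.96 and 12.1 CPM in genistein embryos, against 0.245, 0.0645 and 0.142 CPM in control embryos (log2 fold change 5.96 ± 0.58 SE without the covariate and 5.66 ± 0.40 with it). The lowest genistein library stood far above the highest control library. Its homeolog plk2.S had 9.24, 4.95 and 7.97 CPM in genistein embryos, against 6.45, 2.90 and 3.83 CPM in control embryos, and the groups overlapped (covariate fit, adjusted p = 0.0505). From here on, log2 fold changes are from the covariate fit, with ± SE, unless the fit is named.

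Both homeologs of the apelin receptor, a G protein coupled receptor of mesoderm and later of vessels, rose. aplnr.S had 22.2, 2.72 and 14.3 CPM in genistein embryos, against 0.734, 0 and 0.213 CPM in control embryos (log2 5.02 ± 0.48 with the covariate, adjusted p = 2.93e-05). aplnr.L had 8.25, 1.90 and 7.59 CPM in genistein embryos, against 1.39, 0.451 and 0.355 CPM in control embryos (log2 2.75 ± 0.42, adjusted p = 7.82e-04). Within the genistein group both copies were lowest in genistein 2, the library with the smallest mitochondrial share, and both had a positive slope on that share. pdk4.S, which encodes a kinase that shuts off pyruvate dehydrogenase, had 8.43, 3.05 and 6.53 CPM in genistein embryos, against 1.06, 0.451 and 0.426 CPM in control embryos. Its fold change was 3.23 ± 0.43 without and 3.02 ± 0.32 with the covariate (log2 ± SE), while its homeolog pdk4.L lay at 0.245 to 0.987 CPM in all 6 libraries. tent5a.L, of a family of noncanonical poly(A) polymerases, had 16.1, 4.21 and 10.8 CPM in genistein embryos, against 0.898, 1.42 and 0.568 CPM in control embryos (log2 3.09 ± 0.45 with the covariate), and tent5a.S did not pass either test.

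The other 6 of the 11 highest-ranked genes described here rose by less and were even across replicates, which a ranking by p favours. The arrestin-domain gene arrdc4.S had 33.9, 37.2 and 31.7 CPM in genistein embryos, against 19.99, 22.4 and 20.2 CPM in control embryos (log2 0.73 ± 0.11). upf3b.L, a factor of nonsense-mediated decay, had 37.05, 33.4 and 38.5 CPM in genistein embryos, against 24.6, 22.4 and 24.4 CPM in control embryos (log2 0.60 ± 0.10). In both genes the groups did not overlap, which the rule for naming them required. lix1l.L (0.67), tpd52l2.L (0.47), zbtb12.L (0.58) and pip4p2.L (0.49), which encodes a phosphoinositide phosphatase, rose by a similar log2 amount. In the covariate fit all 11 kept their calls when any single library was left out. Without the covariate 4 of the 11 did so (plk2.L, pdk4.S, tent5a.L and arrdc4.S); control 2, control 3, genistein 1 or genistein 3 each ended the call of at least 1 of the other 7, and tpd52l2.L and pip4p2.L also lost it with library totals as the scaling.

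The lower genes at the top of the ranking had even values between replicates, which a ranking by smallest p favours. ets2.L, a transcription factor gene of the ETS family that lies downstream of Ras and MAPK, had 19.02, 19.2 and 19.8 CPM in genistein embryos, against 69.6, 78.2 and 67.4 CPM in control embryos. It fell by 1.89 on the log2 scale without the covariate (adjusted p = 2.86e-04) and by 1.86 with it, and it kept its call in every alternative fit run for it. Its homeolog ets2.S had 78.04, 85.6 and 82.5 CPM in genistein embryos, against 99.2, 134 and 124 CPM in control embryos and passed only with the covariate. klf2.S, a Kruppel-like factor gene, had 17.5, 20.6 and 20.9 CPM in genistein embryos, against 52.8, 59.4 and 56.2 CPM in control embryos (log2 -1.48 ± 0.09), and klf2.L had 76.97, 99.9 and 84.1 CPM in genistein embryos, against 147, 191 and 166 CPM in control embryos (log2 -0.90 ± 0.08).

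A pair of kinase genes stood close to ets2 and klf2. The serine/threonine kinase gene pim3.L had 28.5, 25.3 and 27.1 CPM in genistein embryos, against 68.9, 70.8 and 67.6 CPM in control embryos, and pim3.S also fell (log2 -1.36 ± 0.12 and -0.85 ± 0.10 without the covariate). plk3.S, another polo-like kinase that responds to stress and growth factors, had 35.8, 36.5 and 39.3 CPM in genistein embryos, against 75.6, 75.04 and 75.7 CPM in control embryos, and plk3.L had 51.8, 43.9 and 40.3 CPM in genistein embryos, against 87.1, 80.003 and 79.3 CPM in control embryos. The plk3 copies thus fell (log2 -1.02 and -0.86 without the covariate) while plk2.L rose.

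The rest of the 12 lowest-p genes cover several functions. ano1.L, a calcium-activated chloride channel gene, had 41.3, 44.3 and 45.8 CPM in genistein embryos, against 92.7, 89.8 and 92.2 CPM in control embryos. tfap2c.L, an AP-2 transcription factor gene of the ectoderm, had 5.47, 6.11 and 5.57 CPM in genistein embryos, against 18.7, 20.05 and 21.4 CPM in control embryos (log2 -1.79 ± 0.16). ruvbl2.L, an ATPase of chromatin remodelling and box C/D snoRNP assembly, had 13.8, 11.4 and 9.51 CPM in genistein embryos, against 29.5, 30.2 and 27.3 CPM in control embryos. The naming rule required that the groups did not overlap in these 3 genes. Centrosome and basal body genes were also among them: alms1.L had 6.997, 6.36 and 6.72 CPM in genistein embryos, against 21.5, 24.5 and 18.4 CPM in control embryos, and ccdc18.L had 30.5, 27.99 and 26.3 CPM in genistein embryos, against 50.3, 54.4 and 52.3 CPM in control embryos. nherf1.L, a scaffold under the apical membrane, had 35.8, 33.6 and 35.5 CPM in genistein embryos, against 75.5, 76.7 and 71.4 CPM in control embryos, btbd6.S, an adaptor of a ubiquitin ligase, had 45.8, 44.2 and 46.4 CPM in genistein embryos, against 79.4, 82.3 and 76.3 CPM in control embryos, and zfand4.L had 22.8, 24.1 and 24.4 CPM in genistein embryos, against 64.7, 53.3 and 52.1 CPM in control embryos. All 12 lower genes kept their calls in both fits when any single library was left out.

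**Figure D3:**
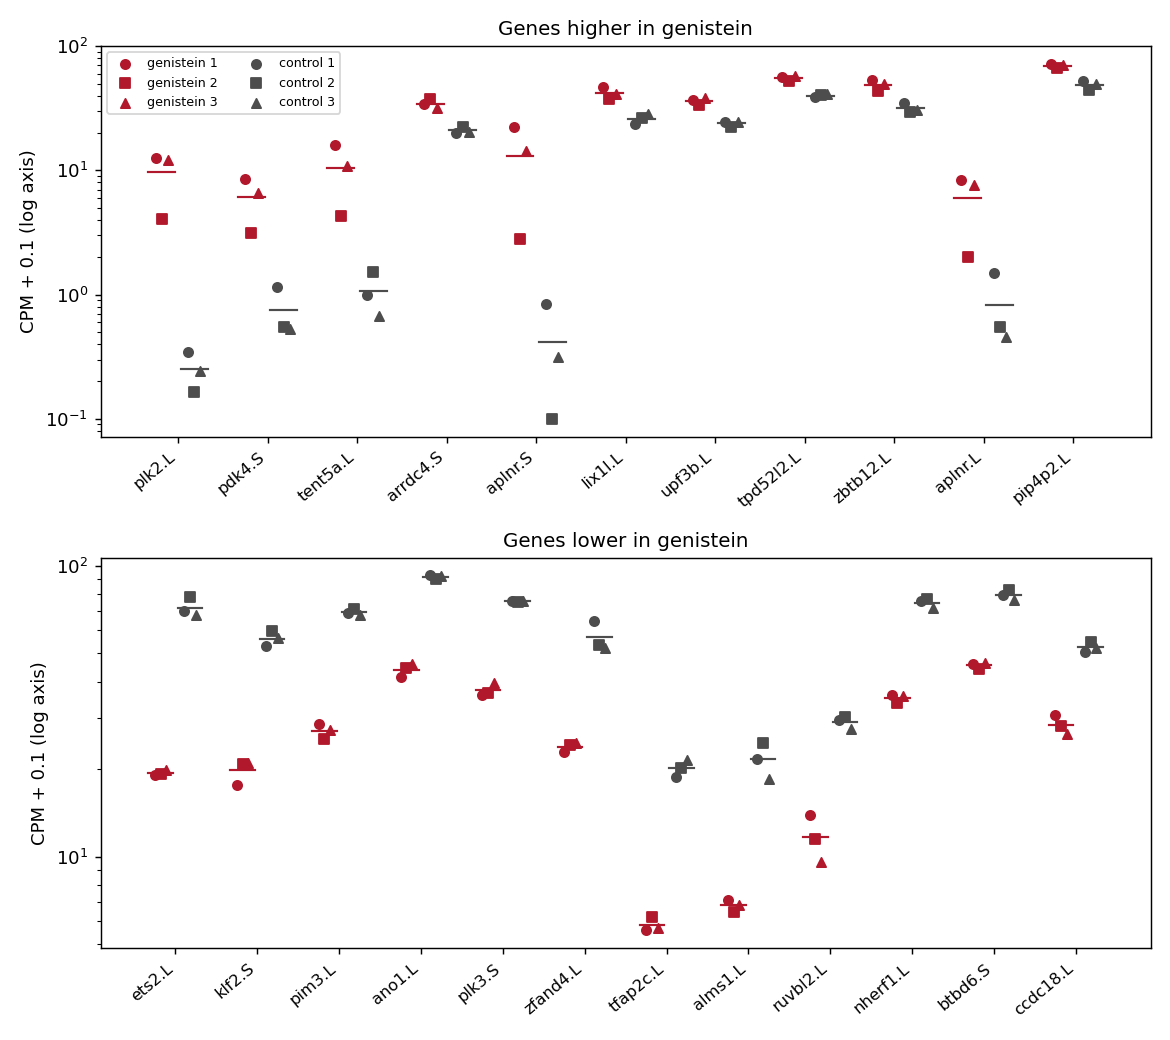
CPM plus 0.1 on a log axis for 11 higher genes (upper panel) and 12 lower genes (lower panel) of smallest p among those called in both fits, with 3 genistein libraries (red, left) and 3 control libraries (grey, right) per gene and bars at the group means. The rule that chose these 23 genes allowed no overlap of genistein and control points. Genistein 2 lies lowest of its group for plk2.L, pdk4.S, tent5a.L and both aplnr copies.

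In 61 gene pairs both homeologs fell. Among 5198 pairs with both copies tested, those 61 fell without the covariate in both copies and 1 pair rose in both. In 259 further pairs only 1 copy fell, and the other copy had the same sign in 217 of them, with a median of -0.35 on the log2 scale. With the covariate both copies fell in 281 pairs, both rose in 168, and the copies were called in opposite directions in 19. Among those 19 was acly, encoding ATP citrate lyase, whose L copy fell (log2 -0.77 ± 0.13).

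The 52 gene lists described next hold members matched by base symbol, and every homeolog or tandem copy was counted separately. The counts of members called with the covariate are to be read against 10.9% lower and 8.58% higher over all genes, and the list medians against 0.03. Several lists lay near those shares or below them on both sides. Among them were xenobiotic genes (8.57% lower and 8.57% higher), remodellers and histones (7.69% and 8.79%) and sphingolipid and phosphoinositide enzymes (8.70% and 7.25%). Such counts are not a result about the list. Scaling by library totals lowered the higher and raised the lower counts in most lists, and is given where it turned which direction had more members. Genes named beyond the naming rule were chosen after their values were seen. For each list the covariate counts that moved by over 1.5 times and by at least 2 genes when 1 library was left out are given with that library. Calls of single members without the covariate differed in how steady they were. Of 12 such fits, gas1.S and lyn.L kept theirs in 1, and notch3.L and jag1.S in 3. Others, such as aurkb.L and kif11.L, kept theirs in all 12.

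**Figure D4:**
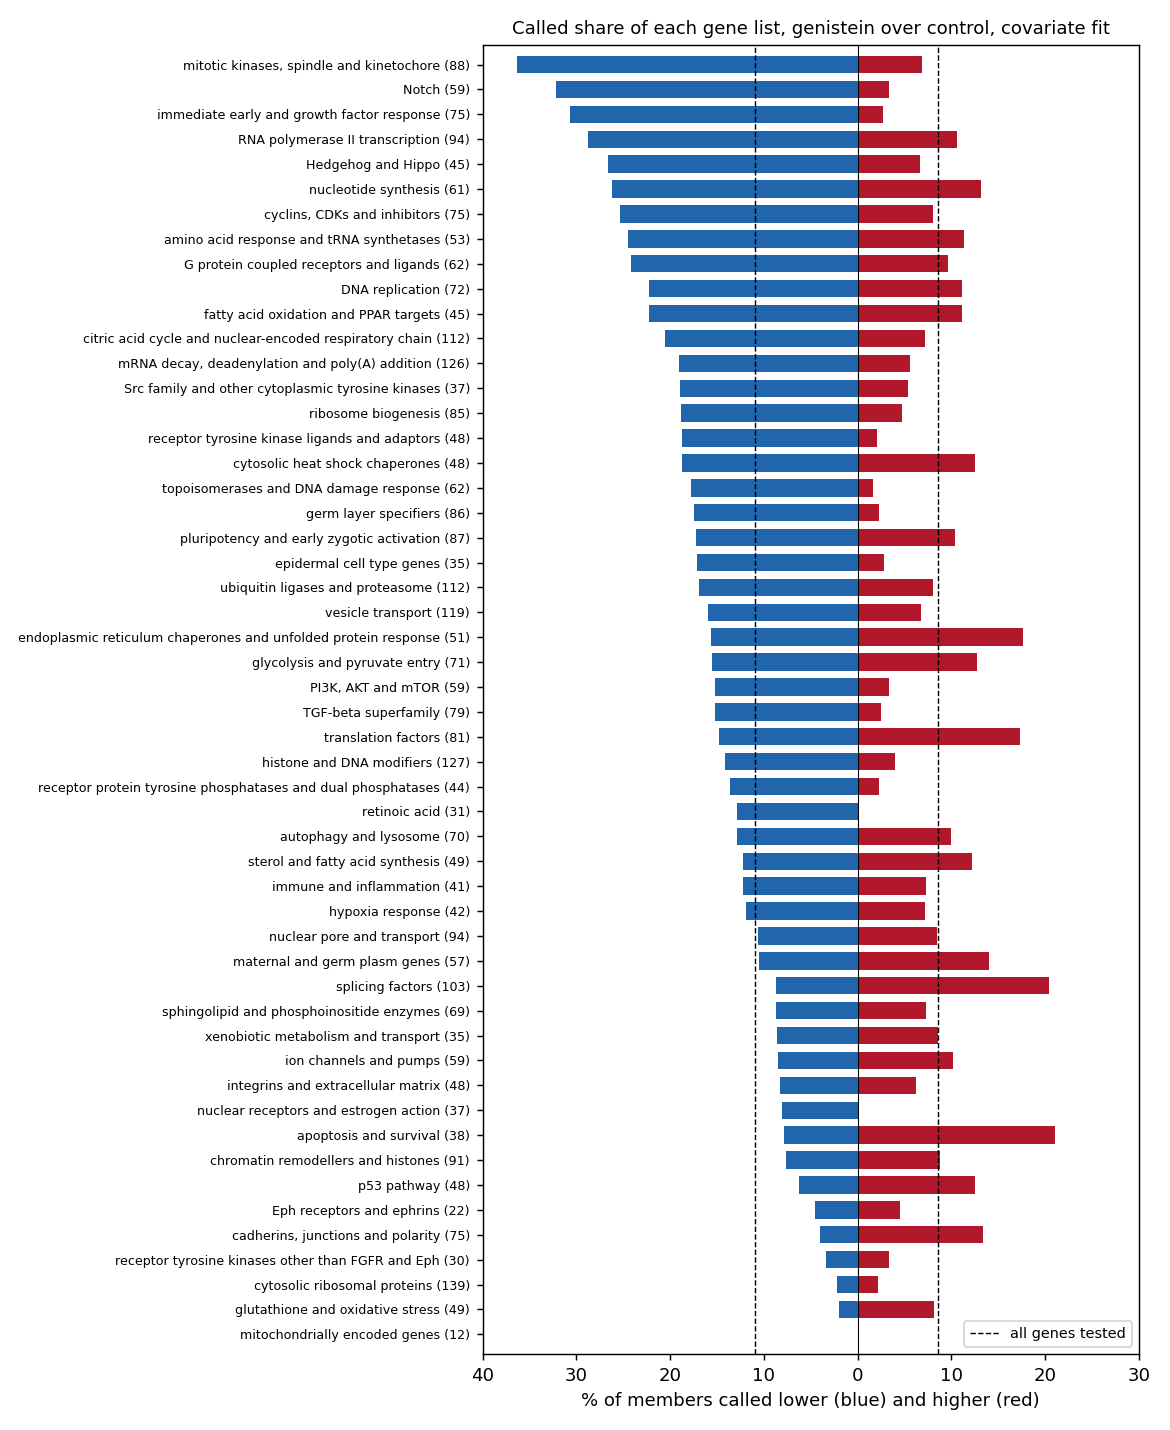
Percent of the tested members of each of 52 gene lists that were called lower (blue bars, left of 0) and higher (red bars, right of 0) in genistein in the covariate fit, with the number of members in brackets and dashed lines at the share over all genes tested. Mitotic kinases, spindle and kinetochore genes have the longest bar on the lower side at 36.4%, and apoptosis and splicing genes have the longest bars on the higher side at 21.1% and 20.4%.

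Mitotic genes had the largest share of lower members among the 52 lists. Of 88 kinase, spindle and kinetochore genes, with the covariate 32 fell and 6 rose, and without it 13 fell and 2 rose, and 36.4% were thus lower with the covariate. aurkb.L, the kinase of the chromosomal passenger complex, had 17.7, 17.9 and 17.7 CPM in genistein embryos, against 41.2, 40.9 and 45.7 CPM in control embryos. kif11.L, the kinesin motor that pushes spindle poles apart, had 27.7, 24.3 and 27.2 CPM in genistein embryos, against 61.9, 74.5 and 66.2 CPM in control embryos. In both genes the genistein values lay far below the lowest control value, and the log2 fold changes were -1.26 ± 0.13 and -1.33 ± 0.14 with the covariate. ect2.S, which acts at the cleavage furrow in cytokinesis, had 15.2, 20.8 and 17.96 CPM in genistein embryos, against 36.96, 37.1 and 39.1 CPM in control embryos, and kif11.S, ect2.L, aurka.S and the centriole kinase gene plk4.L also fell in both fits. The kinetochore gene spc25.L (0.51 ± 0.08) and the passenger complex gene cdca8.S (0.45 ± 0.09) rose in both fits, so the list did not move as 1. Among 75 cyclins, CDKs and inhibitors with the covariate 19 fell and 6 rose, and without it 7 fell and 0 rose. cdk1.L, the kinase that drives entry into mitosis, had 11.9, 10.2 and 11.2 CPM in genistein embryos, against 26.8, 22.4 and 21.9 CPM in control embryos (log2 -1.13 ± 0.14), and e2f8.L, a repressor of E2F targets, had 51.1, 49.8 and 57.3 CPM in genistein embryos, against 105, 111 and 103 CPM in control embryos (log2 -1.001 ± 0.12). The cyclin genes ccna2.L (0.47) and ccnb1.S (0.33) rose with the covariate only. For the mitotic list the higher count was 3 without genistein 3, control 1 or control 3. For cyclins and CDKs the higher count was 0 to 3 without genistein 3, control 1 or control 3.

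Genes for DNA replication and its building blocks were also more often lower than higher. Of 72 replication genes with the covariate 16 fell and 8 rose, and without it 6 fell and 0 rose. ticrr.L, a factor for the start of DNA replication, had 27.3, 30.1 and 27.5 CPM in genistein embryos, against 56.5, 75.9 and 70.5 CPM in control embryos (log2 -1.20 ± 0.13), and ticrr.S fell too (log2 -0.996 ± 0.11). mcm10.L had 61.2, 79.5 and 65.3 CPM in genistein embryos, against 101, 121 and 119.5 CPM in control embryos. Of 61 nucleotide synthesis genes with the covariate 16 fell and 8 rose, and without it 7 fell and 0 rose, the lower ones being enzymes of several steps. gmps.L, which makes GMP, had 3.77, 3.47 and 4.61 CPM in genistein embryos, against 10.7, 8.83 and 10.4 CPM in control embryos (log2 -1.38 ± 0.22). umps.L, which makes UMP, had 34.8, 30.7 and 32.6 CPM in genistein embryos, against 56.1, 60.8 and 56.8 CPM in control embryos (log2 -0.82 ± 0.10), and rrm1.S, a subunit of ribonucleotide reductase, had 57.1, 31.9 and 52.1 CPM in genistein embryos, against 104, 82.7 and 83.7 CPM in control embryos. Of 62 topoisomerase and DNA damage genes with the covariate 11 fell and 1 rose, and without it 3 fell and 0 rose, among them the checkpoint gene topbp1.L (-0.91 ± 0.11). For replication genes the lower count was 10 without control 1, and the higher count was 1 to 5 without genistein 3, control 1, control 3, BIO 3, Chiron 2 or Chiron 3. For nucleotide synthesis the lower count was 10 without control 1, and the higher count was 1 to 5 without genistein 1, genistein 3, control 1, control 3, BIO 3, Chiron 2 or Chiron 3. For topoisomerase and damage genes the lower count was 7 without genistein 3 and 17 without genistein 2, and the higher count was 4 without genistein 2.

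Members of the immediate early and growth factor response list were more often lower than higher. Not all of them are immediate early genes, which cells switch on within minutes of a growth factor signal. Of 75 genes with the covariate 23 fell and 2 rose, and without it 9 fell and 0 rose, with a list median of -0.32 on the log2 scale. Beside ets2 and klf2, myc.L had 13.9, 6.36 and 10.95 CPM in genistein embryos, against 29.05, 24.7 and 26.1 CPM in control embryos (log2 -1.44 ± 0.18), and fos.S had 4.31, 2.23 and 3.75 CPM in genistein embryos, against 6.69, 9.73 and 8.52 CPM in control embryos (log2 -1.28 ± 0.28). Both klf5 copies fell in both fits, klf5.L at -0.94 ± 0.16 and klf5.S at -0.88 ± 0.11. nr4a1.S, an orphan nuclear receptor gene, had 0.538, 0.826 and 1.34 CPM in genistein embryos, against 2.94, 2.90 and 1.92 CPM in control embryos and fell with the covariate only (log2 -1.52 ± 0.41). The antiproliferative btg1.L (0.41) and btg1.S (0.53) were the 2 members that rose, both with the covariate only. For this list the lower count was 14 without control 1.

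Of 30 receptor tyrosine kinase genes outside the FGF and Eph families 1 fell with the covariate and 1 rose, and insr.L, the insulin receptor gene, had 19.6, 21.9 and 16.2 CPM in genistein embryos, against 29.9, 34.2 and 33.5 CPM in control embryos (log2 -0.73 ± 0.14). Of 48 ligands and adaptors with the covariate 9 fell and 1 rose, and without it 4 fell and 0 rose. Both copies of the growth factor gene vegfa fell: vegfa.L had 23.2, 21.5 and 19.9 CPM in genistein embryos, against 37.9, 44.2 and 37.5 CPM in control embryos and vegfa.S had 7.62, 9.16 and 11.5 CPM in genistein embryos, against 16.2, 20.2 and 14.5 CPM in control embryos. errfi1.S, a feedback inhibitor of the EGF receptor, fell, with a log2 value of -0.80 ± 0.15. Of 37 cytoplasmic tyrosine kinase genes with the covariate 7 fell and 2 rose, and without it 2 fell and 0 rose, the 2 called in both fits being the Src family gene lyn.L (-0.55 ± 0.14) and tnk2.L (-0.82 ± 0.18), which were both lost from the covariate calls without control 1. Of 44 phosphatase genes 6 fell and 1 rose with the covariate, and ptpn1.L was among the lower ones (-0.91 ± 0.16). Of 59 PI3K, AKT and mTOR genes 9 fell and 2 rose, all with the covariate only, and of 22 Eph and ephrin genes efna1.S rose (1.51 ± 0.29) and epha2.L fell (-0.42 ± 0.10), both with the covariate only. For ligands and adaptors the lower count was 5 without control 3. For cytoplasmic tyrosine kinases the lower count was 11 without genistein 2, and the higher count was 0 without control 1. For PI3K, AKT and mTOR genes the lower count was 5 without genistein 3 or control 3, and the higher count was 0 without control 1. For Eph and ephrin genes the higher count was 3 without genistein 2.

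Notch genes had the next-largest share of lower members, at 32.2% with the covariate. Of 59 genes with the covariate 19 fell and 2 rose, and without it 3 fell and 1 rose, with a median of -0.34. hes4.L, a transcriptional repressor gene of the hairy/E(spl) class, had 0.628, 0.495 and 0.480 CPM in genistein embryos, against 3.67, 2.90 and 2.20 CPM in control embryos (log2 -2.48 ± 0.32). The receptor gene notch3.L had 22.5, 29.5 and 20.4 CPM in genistein embryos, against 31.1, 60.7 and 54.1 CPM in control embryos (log2 -0.89 ± 0.12), and the ligand gene jag1.S had 13.7, 16.02 and 10.8 CPM in genistein embryos, against 19.99, 23.4 and 23.8 CPM in control embryos (log2 -0.69 ± 0.13). All 4 copies of hes7 fell with the covariate only. hes7.1.L shows how they varied: it had 26.9, 2.31 and 21.7 CPM in genistein embryos, against 95.9, 18.9 and 32.3 CPM in control embryos, the groups overlapped, and values were highest where the mitochondrial share was high. Against these, the ligand gene dll1.L rose in both fits, with 23.2, 5.12 and 17.8 CPM in genistein embryos, against 4.08, 2.26 and 1.42 CPM in control embryos (log2 2.28 ± 0.43). For Notch genes the lower count was 12 without control 1, and the higher count was 4 without genistein 2.

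Hedgehog and Hippo genes were also more often lower than higher. Of 45 Hedgehog and Hippo genes with the covariate 12 fell and 3 rose, and without it 4 fell and 0 rose, with a median of -0.22. ptch1.L, the Hedgehog receptor and itself a target of the pathway, had 7.27, 9.41 and 5.38 CPM in genistein embryos, against 14.8, 17.02 and 14.3 CPM in control embryos (log2 -1.02 ± 0.16), and gas1.S, a Hedgehog co-receptor gene, fell, with a log2 value of -0.56 ± 0.11. amotl2.S, an angiomotin gene, had 0.359, 0.743 and 0.865 CPM in genistein embryos, against 3.59, 1.74 and 1.92 CPM in control embryos, and its covariate call was lost without control 1. For these genes the higher count was 1 without genistein 3, control 1, control 2, BIO 3, Chiron 2 or Chiron 3.

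Both copies of the chemokine receptor gene cxcr4 fell, whereas both aplnr copies rose. Of 62 G protein coupled receptor and ligand genes with the covariate 15 fell and 6 rose, and without it 5 fell and 2 rose. cxcr4.L, the receptor for Cxcl12, had 4.40, 1.24 and 4.80 CPM in genistein embryos, against 25.1, 11.6 and 12.995 CPM in control embryos (log2 -2.46 ± 0.21), and cxcr4.S had 2.87, 0.908 and 2.02 CPM in genistein embryos, against 11.3, 4.25 and 5.33 CPM in control embryos (log2 -2.01 ± 0.24). The ligand gene cxcl12.L had 0 counts over the genistein libraries and 11 over the control libraries. A count of 0 allows up to 3 counts in each library, so these counts lie near that limit and no fall is read from them. lpar1.L, a lysophosphatidic acid receptor gene, had 3.23, 3.14 and 4.71 CPM in genistein embryos, against 10.2, 9.86 and 11.9 CPM in control embryos (log2 -1.53 ± 0.23). For receptors and ligands the higher count was 3 without genistein 3, control 1 or control 3.

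Of 31 retinoic acid genes with the covariate 4 fell and 0 rose, and without it 2 fell and 0 rose. cyp26a1.S, the enzyme that breaks retinoic acid down, had 2.33, 0.495 and 2.21 CPM in genistein embryos, against 17.95, 7.48 and 9.09 CPM in control embryos (log2 -2.96 ± 0.34), so the highest genistein library lay below the lowest control library. Of 79 TGF-beta superfamily genes with the covariate 12 fell and 2 rose, and without it 2 fell and 0 rose, the 2 called in both fits being the signal transducer smad2.L (-0.40 ± 0.09) and the repressor ski.S (-0.48 ± 0.09). For TGF-beta genes the lower count was 6 without genistein 3, control 1 or control 3, and the higher count was 0 without genistein 1, genistein 3 or control 3 and 4 to 8 without genistein 2, control 2 or Chiron 1. The call of smad2.L was lost without control 1.

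Metabolic lists held genes of both directions beside the rise of pdk4.S. Of 71 genes for glycolysis and pyruvate entry with the covariate 11 fell and 9 rose, and without it 5 fell and 1 rose. aldoc.L, an aldolase, had 24.04, 17.8 and 18.7 CPM in genistein embryos, against 38.5, 39.4 and 37.3 CPM in control embryos (log2 -0.93 ± 0.14). Enolase, which acts near the end of glycolysis, fell in both copies: eno1.L had 44.4, 41.4 and 55.2 CPM in genistein embryos, against 83.6, 77.2 and 72.4 CPM in control embryos, and eno1.S had 48.2, 28.3 and 46.2 CPM in genistein embryos, against 82.2, 70.3 and 66.4 CPM in control embryos. The mitochondrial pyruvate carrier genes mpc1.L (0.52) and mpc1.S (0.44) rose with the covariate only. For glycolysis the lower count was 7 without control 1, and the higher count was 4 without control 1.

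Of 45 genes for fatty acid oxidation with the covariate 10 fell and 5 rose, and without it 4 fell and 0 rose. ppargc1a.L, a coactivator gene of mitochondrial biogenesis, had 5.74, 10.3 and 6.92 CPM in genistein embryos, against 14.8, 18.4 and 14.8 CPM in control embryos (log2 -0.999 ± 0.15), and acads.L, an acyl-CoA dehydrogenase gene, had 5.38, 8.59 and 6.53 CPM in genistein embryos, against 12.1, 14.9 and 13.7 CPM in control embryos (log2 -0.93 ± 0.15). For fatty acid oxidation the lower count was 6 without control 1, and the higher count was 1 to 3 without control 1, control 2 or control 3 and 11 without genistein 2. Among 49 sterol and fatty acid synthesis genes 6 fell and 6 rose with the covariate, and both copies of scap, the sensor that carries SREBP, fell (scap.S -0.74 ± 0.13 and scap.L -0.58 ± 0.10). For sterol and fatty acid synthesis the higher count was 1 to 3 without genistein 1, genistein 3, control 1 or control 3. With library totals as the scaling 2 of these 49 rose and 9 fell.

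The citric acid cycle and nuclear-encoded respiratory chain list moved strongly with the mitochondrial share, with a positive slope called for 70 of 112 members, against 26.2% of all genes. Positive slopes were also common in other lists, such as maternal and germ plasm genes (34 of 57). With the covariate 23 fell and 8 rose, and without it 5 fell and 1 rose. uqcrc1.L, a core subunit of complex III, had 7.45, 5.61 and 6.34 CPM in genistein embryos, against 16.7, 14.5 and 14.1 CPM in control embryos (log2 -1.26 ± 0.14). mdh2.L, the mitochondrial malate dehydrogenase gene, had 25.1, 26.997 and 30.5 CPM in genistein embryos, against 47.1, 44.4 and 40.8 CPM in control embryos, and mdh2.S had 5.02, 2.31 and 5.48 CPM in genistein embryos, against 14.9, 8.77 and 10.2 CPM in control embryos (log2 -0.68 ± 0.10 and -1.57 ± 0.19). idh1.S, a list member that encodes a cytosolic isocitrate dehydrogenase, rose in both fits. It had 127, 128 and 112 CPM in genistein embryos, against 82.4, 91.5 and 85.9 CPM in control embryos. For this list the lower count was 8 to 15 without genistein 2, control 1 or control 2, and the higher count was 2 to 5 without genistein 1, genistein 3, control 1, control 3, BIO 3, Chiron 2 or Chiron 3 and 13 without genistein 2. Among 53 amino acid response and tRNA synthetase genes with the covariate 13 fell and 6 rose, and without it 4 fell and 0 rose. The leucyl-tRNA synthetase gene lars1.L had 14.4, 14.2 and 12.4 CPM in genistein embryos, against 24.4, 30.8 and 25.1 CPM in control embryos (log2 -0.93 ± 0.12), and chac1.S, whose enzyme breaks down glutathione under the integrated stress response, had 8.52, 4.54 and 7.97 CPM in genistein embryos, against 16.4, 14.4 and 17.7 CPM in control embryos. For these genes the lower count was 6 without control 1, and the higher count was 0 to 3 without genistein 1, genistein 3, control 1, control 3, Chiron 2 or Chiron 3.

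**Figure D5:**
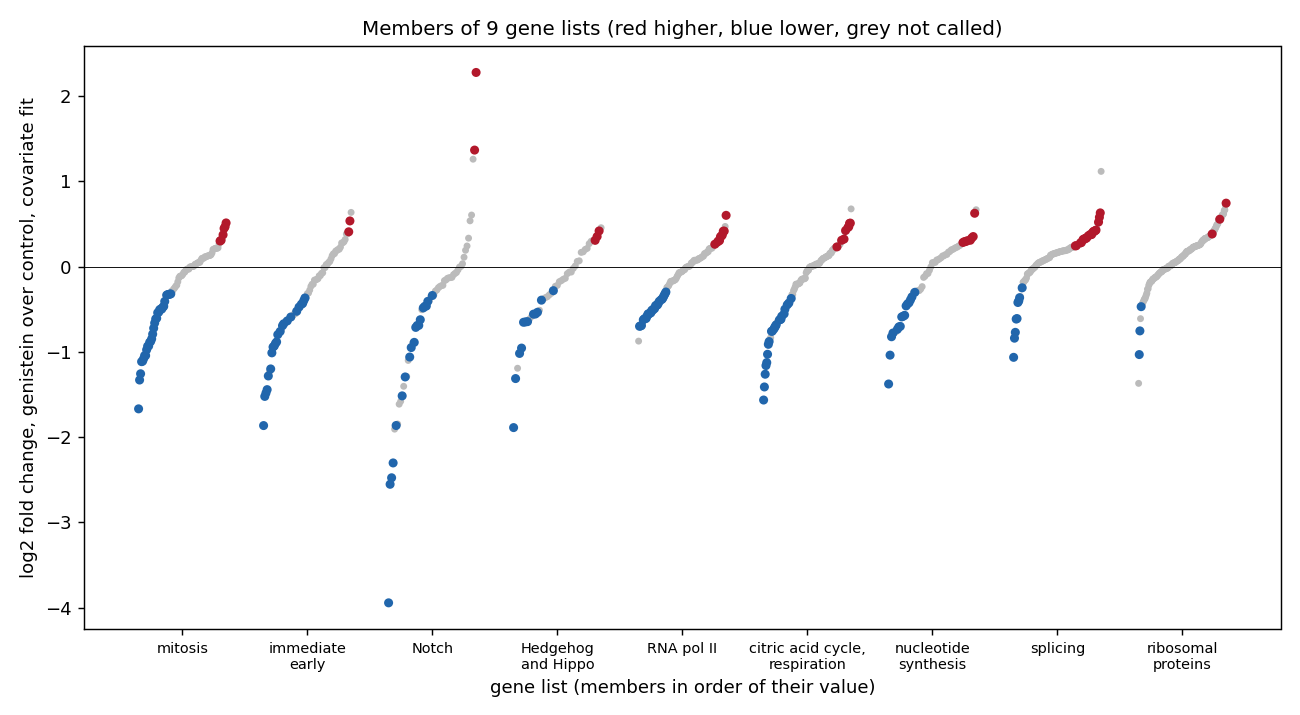
Log2 fold change of genistein over control in the covariate fit (y axis) for every tested member of 9 gene lists, in order of value within a list, with members called higher in red, lower in blue and others in grey. The lowest Notch member, hes7.1.S, lies at a log2 value of -3.94, most called splicing factors lie above 0, and few ribosomal protein genes were called.

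Of 94 genes of RNA polymerase II transcription with the covariate 27 fell and 10 rose, and without it 5 fell and 0 rose. Lower members included subunits of Mediator, the complex that links activators to the polymerase: med24.L had 43.7, 47.4 and 42.8 CPM in genistein embryos, against 64.6, 78.7 and 67.1 CPM in control embryos (log2 -0.61 ± 0.09), and med26.L (-0.70 ± 0.10) and med16.S (-0.69 ± 0.09) also fell in both fits. The elongation factor gene ell.S fell, with a log2 value of -0.54 ± 0.08, and supt16h.L, of the histone chaperone FACT, fell too (log2 -0.61 ± 0.10). The higher members, such as the polymerase subunit gene polr2e.S (0.60) and the TATA-binding protein gene tbp.S (0.42), rose with the covariate only. For transcription genes the higher count was 2 to 6 without genistein 3, control 1, BIO 3 or Chiron 3.

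Of 127 histone and DNA modifiers with the covariate 18 fell and 5 rose, and without it 6 fell and 1 rose. setd2.S, the methyltransferase of histone H3 lysine 36, had 30.8, 50.6 and 31.8 CPM in genistein embryos, against 57.5, 108 and 101 CPM in control embryos (log2 -1.12 ± 0.12). The demethylase gene kdm7a.L had 8.52, 10.7 and 8.17 CPM in genistein embryos, against 15.2, 21.9 and 19.7 CPM in control embryos (log2 -0.98 ± 0.12), and kdm7a.S, ep300.S, kdm6a.S and kdm6a.L fell in both fits as well. suv39h2.L, which methylates histone H3 lysine 9, rose, with 34.4, 45.9 and 39.7 CPM in genistein embryos, against 24.7, 25.7 and 27.1 CPM in control embryos (log2 0.66 ± 0.10). The slope on the mitochondrial share was negative for 78 of the 127, against 26.7% of all genes. This was not particular to the modifiers. Negative slopes were also called for 62 of 91 remodellers and histones, 59 of 94 transcription genes and 65 of 103 splicing factors. The same held for 59 of 94 nuclear pore genes and 75 of 126 genes of mRNA tails and stability. For these modifiers the lower count was 28 without genistein 2, and the higher count was 2 to 3 without genistein 1, control 1, control 3, BIO 3 or Chiron 3 and 8 without genistein 2. In the list of 91 chromatin remodellers and histones no gene was called without the covariate, and 7 fell and 8 rose with it, among them pbrm1.L (-0.93 ± 0.11) and the nucleolar chaperone gene npm1.S (0.50 ± 0.08). With library totals as the scaling 3 of these 91 rose and 10 fell. For remodellers and histones the lower count was 4 without genistein 1, genistein 3 or control 3 and 12 without genistein 2, and the higher count was 3 to 5 without genistein 3, control 1 or control 3.

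Splicing factors had the most higher members by number among the 52 lists, with TMM scaling. Of 103 genes with the covariate 9 fell and 21 rose, and without it 5 fell and 1 rose. The slope on the mitochondrial share was called negative for 65 of the 103 and positive for 17. The epithelial splicing regulators fell: esrp1.S had 20.004, 26.3 and 19.9 CPM in genistein embryos, against 43.3, 52.5 and 47.4 CPM in control embryos, and esrp1.L had 40.5, 60.6 and 45.8 CPM in genistein embryos, against 79.97, 94.7 and 83.4 CPM in control embryos (log2 -1.06 ± 0.11 and -0.77 ± 0.10). rbm5.S, a regulator of exon choice, had 10.4, 9.33 and 11.3 CPM in genistein embryos, against 16.2, 19.1 and 19.9 CPM in control embryos. The higher members included the core small nuclear ribonucleoprotein genes snrpf.L (0.63) and snrpd3.S (0.58), of which neither passed without the covariate. prpf4.L, with 140.4, 139 and 135 CPM in genistein embryos, against 101, 110.0 and 106 CPM in control embryos, was the only higher member called in both fits. For splicing factors the lower count was 5 without control 1, and the higher count was 9 without genistein 3, control 1 or control 3. In the 6 libraries alone 3 rose. With library totals as the scaling 5 rose and 10 fell.

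Genes that act on mRNA tails and stability were more often lower than higher. Of 126 members with the covariate 24 fell and 7 rose, and without it 6 fell and 1 rose. papolg.L, a poly(A) polymerase gene, had 32.9, 37.6 and 30.8 CPM in genistein embryos, against 66.3, 88.1 and 91.04 CPM in control embryos (log2 -1.23 ± 0.11), and zfp36l2.S, which binds AU-rich elements and promotes decay, had 11.4, 12.96 and 14.9 CPM in genistein embryos, against 25.8, 32.2 and 23.9 CPM in control embryos (log2 -1.01 ± 0.16). For these genes the lower count was 12 to 14 without genistein 3 or control 1, and the higher count was 1 to 4 without genistein 3, control 1, control 2, BIO 3, Chiron 2 or Chiron 3. Among 81 translation factors with the covariate 12 fell and 14 rose, and without it 7 fell and 0 rose. The cap-binding protein gene eif4e.L had 21.2, 16.02 and 17.96 CPM in genistein embryos, against 37.2, 30.2 and 30.04 CPM in control embryos (log2 -0.86 ± 0.11), its scaffold partner eif4g1.L fell too (log2 -1.17 ± 0.16), and both copies of the eIF3 subunit gene eif3b fell (-0.67 for eif3b.S and -0.65 for eif3b.L). For translation factors the higher count was 2 to 9 without genistein 3, control 1, control 3 or Chiron 3. With library totals as the scaling 1 translation factor gene rose and 14 fell. Of 85 ribosome biogenesis genes with the covariate 16 fell and 4 rose, and without it 7 fell and 0 rose, led by the nucleolar GTPase gene gnl2.L, with 18.3, 18.5 and 20.4 CPM in genistein embryos, against 37.5, 37.2 and 36.5 CPM in control embryos (log2 -0.97 ± 0.11), and by ddx56.L (-0.68 ± 0.08). For ribosome biogenesis the higher count was 1 to 2 without genistein 3, control 1, control 2, control 3, BIO 3, Chiron 2 or Chiron 3.

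Levels of the ribosomal protein genes themselves followed the mitochondrial share, and few passed the test. None of 139 was called without the covariate, 3 rose and 3 fell with it, and 125 had a called positive slope on the mitochondrial share. Their median was 0.32 without the covariate, 0.12 with it, and -0.32 with genistein 1, genistein 3 and control 1 left out. For ribosomal protein genes the lower count was 0 to 1 without genistein 2, genistein 3, control 1 or control 2, and the higher count was 0 to 1 without genistein 1, genistein 3, control 1, control 3 or Chiron 2 and 9 to 38 without genistein 2 or control 2. With the covariate and library totals as the scaling 1 of the 139 rose and 8 fell. None of the 12 mitochondrially encoded genes passed in either fit, where the second fit holds their summed share as its covariate.

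Stress and survival genes gave mixed directions. Of 48 p53 pathway genes with the covariate 3 fell and 6 rose, and without it 2 fell and 2 rose: the 2 higher in both fits were plk2.L and the cyclin G1 gene ccng1.L, which had 8.34, 1.82 and 6.82 CPM in genistein embryos, against 1.22, 0.129 and 0.0710 CPM in control embryos (log2 3.38 ± 0.44), and the 2 lower in both were the plk3 copies. Of 38 apoptosis and survival genes with the covariate 3 fell and 8 rose, and without it 1 fell and 1 rose. cflar.L, which blocks caspase 8, had 20.5, 26.01 and 23.6 CPM in genistein embryos, against 37.5, 36.6 and 34.3 CPM in control embryos (log2 -0.61 ± 0.11), while the pro-apoptotic bak1.S (0.61) and bmf.S (0.69) and the caspase inhibitor gene xiap.L (0.43) rose with the covariate only. For the p53 list the higher count was 3 without control 1 and 10 without genistein 2. For the apoptosis list the lower count was 1 without genistein 1, genistein 2, control 1 or control 3, and the higher count was 2 to 4 without genistein 1, genistein 3 or control 1.

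Chaperone lists gave calls in both directions, at shares above those of all genes on both sides. Of 51 endoplasmic reticulum chaperone genes 8 fell and 9 rose with the covariate, and p4hb.L, a protein disulfide isomerase gene, had 74.5, 67.6 and 69.6 CPM in genistein embryos, against 127, 109 and 104 CPM in control embryos (log2 -0.70 ± 0.11). The cytosolic chaperone list also names mitochondrial chaperones (hspd1, hspe1, hspa9) and the transcription factors hsf1 and hsf2. Of its 48 tested genes 9 fell and 6 rose with the covariate. cct7.L, a subunit of the chaperonin that folds actin and tubulin, had 10.1, 8.999 and 12.1 CPM in genistein embryos, against 27.5, 26.8 and 19.95 CPM in control embryos (log2 -1.25 ± 0.19). For the endoplasmic reticulum list the lower count was 2 to 5 without genistein 1, genistein 2, genistein 3, control 1, control 2 or control 3, and the higher count was 2 to 5 without genistein 3 or control 1 and 14 without genistein 2. For the cytosolic list the lower count was 2 to 5 without control 1 or control 2, and the higher count was 1 to 3 without genistein 1, genistein 3, control 1, control 3, BIO 1, BIO 3, Chiron 2 or Chiron 3. With library totals as the scaling 2 rose and 11 fell in the endoplasmic reticulum list, and 1 rose and 12 fell in the cytosolic list.

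Of 37 nuclear receptor and estrogen action genes none was called without the covariate, and 3 fell with it: ncoa2.S (-0.68 ± 0.12), nr2f5.S (-0.77 ± 0.20) and nrip1.L (-0.56 ± 0.16). Of 35 xenobiotic genes with the covariate 3 fell and 3 rose, and without it 3 fell and 0 rose, the 3 lower ones in both fits being both copies of arnt, the dimer partner of the aryl hydrocarbon and hypoxia factors, and the exporter gene abcc1.L. arnt.S had 11.3, 11.1 and 11.05 CPM in genistein embryos, against 19.8, 23.9 and 19.7 CPM in control embryos (log2 -0.90 ± 0.14). Of 49 glutathione and oxidative stress genes none passed without the covariate. With it 4 rose (8.16%, against 8.58% of all genes) and 1 fell, txnip.S. Among the higher ones were sod2.S (0.57 ± 0.17) and prdx4.S (0.58 ± 0.16). Both lost their call without control 1, control 3, genistein 1 or genistein 3. The call of txnip.S was lost without control 1, control 2, control 3, genistein 1 or genistein 3. With library totals as the scaling 3 of the 49 rose and 3 fell. Of 42 hypoxia genes with the covariate 5 fell and 3 rose, and without it 2 fell and 0 rose, the 2 lower without the covariate being the vegfa copies. Of 41 immune genes 5 fell and 3 rose with the covariate, and nfkbia.S, which holds NF-kB in the cytoplasm, had 2.78, 2.56 and 3.75 CPM in genistein embryos, against 10.4, 8.70 and 8.88 CPM in control embryos (log2 -1.67 ± 0.19). For nuclear receptor genes the lower count was 1 without genistein 3 or control 1 and 7 without genistein 2. The call of nr2f5.S was lost without control 1, control 2, genistein 2 or genistein 3. That of nrip1.L was lost without control 1, control 3, genistein 1 or genistein 3. For xenobiotic genes the higher count was 0 to 1 without genistein 1, control 1 or control 3. For oxidative stress genes the higher count was 0 to 1 without genistein 1, genistein 3, control 1 or control 3 and 12 without genistein 2. For hypoxia genes the lower count was 3 without genistein 3 or control 1, and the higher count was 0 to 1 without genistein 1, genistein 3, control 1, Chiron 2 or Chiron 3 and 5 without genistein 2. For immune genes the lower count was 3 without genistein 2, and the higher count was 1 without genistein 1, control 1 or control 3 and 5 without genistein 2.

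Genes of cell structure had called members in both directions. Of 75 cadherin, junction and polarity genes with the covariate 3 fell and 10 rose, and without it 2 fell and 1 rose, the higher ones including the adhesion genes epcam.L (0.32) and epcam.S (0.32) and the tight junction gene marveld3.L (0.40). For these genes the lower count was 7 without genistein 2, and the higher count was 2 to 6 without genistein 1, genistein 3 or control 1 and 19 without genistein 2. The call of marveld3.L was lost without control 1. With library totals as the scaling 1 member rose and 4 fell. actb.L, a cytoplasmic actin gene, had 24.4, 23.7 and 21.3 CPM in genistein embryos, against 45.9, 46.7 and 37.9 CPM in control embryos (log2 -0.90 ± 0.12). Of 48 integrin and matrix genes none was called without the covariate, and 4 fell and 3 rose with it. These shares, 8.33% lower and 6.25% higher, lay below the 10.9% and 8.58% of all genes. For integrin and matrix genes the lower count was 2 without control 1 or control 3, and the higher count was 0 to 1 without genistein 3 or control 1 and 5 without genistein 2 or control 3. Vesicle transport genes numbered 119 tested, 19 lower and 8 higher with the covariate, with the coat subunit genes copg1.L (-1.003 ± 0.14) and copb1.L (-0.82 ± 0.17) lower in both fits. Without the covariate copb1.L kept its call in 2 of 12 fits that left out 1 library, and copg1.L in 9. For nuclear pore and transport genes there were 94 tested, 10 lower and 8 higher with the covariate. These shares, 10.6% and 8.51%, were near those of all genes. The pore protein gene nup153.S had 96.4, 138 and 94.05 CPM in genistein embryos, against 196, 275 and 252 CPM in control embryos (log2 -1.06 ± 0.09). For vesicle transport the lower count was 10 without control 1, and the higher count was 5 without control 1 and 13 without genistein 2. For nuclear pore genes the lower count was 6 without control 3 and 17 without genistein 2, and the higher count was 4 to 5 without control 1, control 2 or control 3.

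Protein turnover genes numbered 112 tested, 19 lower and 9 higher with the covariate, and the ubiquitin ligase gene fbxw7.L had 17.04, 25.2 and 19.7 CPM in genistein embryos, against 33.8, 41.8 and 43.8 CPM in control embryos (log2 -0.88 ± 0.11), while the deubiquitinase gene usp1.S fell as well (log2 -1.05 ± 0.10). Autophagy and lysosome genes gave 70 tested, 9 lower and 7 higher with the covariate, including the proton pump subunit gene atp6v1h.S (-0.88 ± 0.19, lost without control 1). Ion channels and pumps gave 59 tested, 5 lower and 6 higher with the covariate, with the bicarbonate transporter gene slc4a7.L (-0.61 ± 0.09) lower beside ano1.L. With library totals as the scaling 1 channel or pump gene rose and 7 fell. Sphingolipid and phosphoinositide enzymes gave 69 tested, 6 lower and 5 higher with the covariate, and the 1 called in both fits was the ceramide glucosyltransferase gene ugcg.L (-0.83 ± 0.17). For protein turnover the lower count was 11 without control 1, and the higher count was 1 to 4 without genistein 1, genistein 3, control 1 or control 3 and 17 without genistein 2. For autophagy genes the lower count was 3 to 5 without genistein 3, control 1 or Chiron 3, and the higher count was 3 to 4 without genistein 1, genistein 3, control 1 or control 3 and 14 without genistein 2. For channels and pumps the lower count was 3 without control 2 or control 3, and the higher count was 1 to 3 without genistein 3, control 1, Chiron 2 or Chiron 3. For sphingolipid and phosphoinositide enzymes the lower count was 3 without control 3, and the higher count was 1 to 3 without genistein 1, genistein 2, control 1, control 2, BIO 3, Chiron 2 or Chiron 3.

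Genes that mark cell identity were lower in part. Of 87 pluripotency and early zygotic genes with the covariate 15 fell and 9 rose, and without it 5 fell and 0 rose, and sall4.S, a zinc finger gene of pluripotent cells, had 77.8, 93.7 and 74.2 CPM in genistein embryos, against 161, 227 and 199 CPM in control embryos (log2 -1.18 ± 0.12). For these genes the higher count was 2 to 3 without genistein 1, genistein 3, control 1 or control 3 and 25 without genistein 2. Of 86 germ layer specifiers with the covariate 15 fell and 2 rose, and without it 5 fell and 0 rose, and their median was -0.51 in the fit without genistein 1, genistein 3 and control 1, against -0.10 in the 12-library covariate fit. dlx5.S, a homeobox gene of the ectoderm border, had 0 counts over the genistein libraries and 87 over the control libraries (adjusted p = 7.55e-04 with the covariate). For germ layer genes the lower count was 8 without control 1, and the higher count was 0 without genistein 1, genistein 3, control 1 or control 3 and 16 without genistein 2. Of 35 epidermal genes 6 fell and 1 rose with the covariate, ubp1.L alone also without it (-1.21 ± 0.28). For epidermal genes the lower count was 1 to 3 without genistein 3, control 1, control 2, control 3 or BIO 3, and the higher count was 3 to 5 without genistein 2 or control 2. Of 57 maternal and germ plasm genes with the covariate 6 fell and 8 rose, and without it 3 fell and 0 rose, and the oocyte growth factor gene bmp15.L had 5.20, 3.96 and 4.61 CPM in genistein embryos, against 11.9, 8.12 and 8.66 CPM in control embryos (log2 -1.09 ± 0.18). With library totals as the scaling 3 maternal and germ plasm genes rose and 9 fell. For this list the lower count was 2 without control 1, and the higher count was 1 to 5 without genistein 1, genistein 3, control 1 or control 3 and 16 without genistein 2.

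Summed levels of regional markers put the animal ectoderm list at 571, 766 and 634 CPM over 10 gene copies in genistein embryos. Control embryos had 763, 884 and 781 CPM. The 3 copies called, grhl1.L, grhl1.S and sox3.L, all fell with the covariate. The largest parts of the sum were sox3.L and sox3.S, and sox3.S was not called (0.07). Also not called were foxi4.2.L (0.53), foxi4.2.S (0.71) and grhl3.S (0.65), with positive values. The values of grhl3.L, tfap2a.L and tfap2a.S were negative and not called. Vegetal endoderm markers summed to 1209.8, 675 and 1078 CPM in genistein and to 884, 624 and 699 CPM in control embryos. With the covariate mixer.L and vegt.L were called higher. The sum came mostly from vegt.L (383 to 728 CPM in genistein embryos) and vegt.S (254 to 379 CPM). Of the copies not called, sox17a.S (-0.56), foxa4.L (-0.39) and foxa4.S (-0.83) had negative values and the others positive ones. Marginal mesoderm markers summed to 169, 37.6 and 147 CPM in genistein, against 143, 47.6 and 63.6 CPM in control embryos, with none called. Organizer markers summed to 94.6, 26.7 and 78.1 CPM in genistein, against 145, 63.5 and 71.8 CPM in control embryos, with not.S and otx2.S lower with the covariate. Of the tested organizer copies not called, gsc.L (1.67), lhx1.S (0.68) and chrd.1.S (0.11) had positive values and the others negative ones. The groups overlapped in all 4 sums, in the animal list by the pair of genistein 2 and control 1 alone. Symbols chosen for later differentiated cells matched no gene of the table. Also without a match were krt12 and dlx3 of the ectoderm list, noto of the organizer list, and gata4 and gata6 of the endoderm list. The regional sums leave these out. The part of these regional shares in the gene results was not tested.

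Genes called only with the covariate varied within each group, which picking genes by that fit alone favours. cecr2.S, a bromodomain gene of chromatin remodelling, had 29.6, 57.96 and 29.4 CPM in genistein embryos, against 56.7, 106 and 77.4 CPM in control embryos, so that each group was highest in its replicate 2 and the groups overlapped. Its log2 fold change was -1.04 ± 0.29 without the covariate (adjusted p = 0.0769) and -0.91 ± 0.09 with it (adjusted p = 5.32e-05). The deubiquitinase gene usp47.S had 39.9, 71.6 and 42.7 CPM in genistein embryos, against 72.2, 130.4 and 92.7 CPM in control embryos and fell by a similar log2 value (-0.80 ± 0.08). pbrm1.L, a subunit of the PBAF remodeller, had 47.005, 99.8 and 55.6 CPM in genistein embryos, against 101, 177 and 135 CPM in control embryos. tp53bp2.L (-0.74), trim33.L (-0.71) and cep128.L (-0.75) completed the 6 lower genes with the smallest p. On the higher side mad2l2.S, a subunit of translesion polymerase zeta, had 70.5, 47.8 and 64.1 CPM in genistein embryos, against 49.7, 28.5 and 34.7 CPM in control embryos (log2 0.60 ± 0.09), and sub1.L, a transcriptional coactivator gene, had 150.0, 96.3 and 119 CPM in genistein embryos, against 93.7, 57.6 and 69.4 CPM in control embryos (log2 0.64 ± 0.10). smco4.S (0.89), serpinf2.L (0.54), atp6v0e1.L (0.62) and mnat1.L (0.65), a subunit of the CDK-activating kinase, were the other 4. All 12 of these genes kept their calls when any single library was left out, and the 6 libraries alone called each of them as well. Over all named genes, 163 were called with the covariate and 142 of these in every fit that left out 1 of the 12 libraries.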

How the data were processed

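Poly-A RNA of pooled whole embryos was sequenced from 12 libraries, and the raw read count per gene in each library was taken as the authors deposited it. The submitters' processing notes name STAR 2.5.2b and edgeR without saying what each did, and the sources used here do not give the genome build, annotation or counting tool. A RefSeq gene table (Xenopus_laevis_v10.1) held the symbols of 17475 of 18892 genes. It was used for names and to tell which genes are mitochondrially encoded, and so it defined the covariate. Groups followed the treatment labels. R 4.3.3 with edgeR 4.0.16 and limma 3.58.1 was used: genes were kept by edgeR's filterByExpr, counts were scaled by trimmed mean of M values (TMM), and a quasi-likelihood model of 4 group means in 12 libraries was fitted, once without a covariate and once with log2 of the percent of counts on 12 mitochondrially encoded genes. The contrast was genistein minus control, and p-values were adjusted by Benjamini-Hochberg over all 18791 genes tested. CPM values are counts scaled to a TMM-adjusted library total of 1000000, and the limit for a count of 0 uses the unadjusted total. The steps were tested on simulated data.

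Named genes were the 12 higher and 12 lower genes of smallest p in the fit without the covariate among those called in both fits, with no overlap of groups, a symbol and a mean level of 2 CPM or more over the 6 libraries or over 1 group. To these were added 6 higher and 6 lower genes called only with the covariate, up to 3 called members of each gene list, and homeologs. A few genes and 1 list are not reported here. The members and lists were chosen with earlier results of these data known, and list members were matched by base symbol. Alternatives were size factors of DESeq2 1.42.0 and library totals as scaling, DESeq2 as the test, no filter, other sets of libraries, summed homeologs, mitochondrial genes left out, other covariates, a replicate block and leaving out each library. Counts of list members under alternatives other than library totals and the fit without 3 libraries, and the covariate slopes, were added after seeing the data. The limits for a gene without counts cover counting error only. They treat reads as independent molecules, which reads without molecular identifiers are not. The SE values are from the fitted models and include the spread between libraries.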

Additional observations from a re-analysis of the deposited data

How the results depend on the processing

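Of 123 named genes called without the covariate, 905 of 1099 values under other settings of that fit kept their call, 194 lost it and 0 changed direction. For 31 genes called only with the covariate 294 of 310 values of that fit kept their call and 0 changed direction, although prdx4.S was at -0.03 on the log2 scale without the covariate and without control 1, genistein 1 and genistein 3, against 0.58 with the covariate. Without the covariate (68 higher, 564 lower), library totals gave 18 higher, DESeq2 645 higher and 1065 lower, the 6 genistein and control libraries alone 0 and 1, the fit without control 1, genistein 1 and genistein 3 339 and 970, and summed homeologs 34 and 356. With the covariate (1612 higher, 2042 lower), library totals gave 505 higher, the 6 libraries alone 440 and 1293, and the ribosomal protein share in place of the mitochondrial one 2641 higher. Leaving out each library in turn gave 5 to 2317 higher and 176 to 2440 lower without the covariate, and 451 to 2369 higher and 1204 to 2223 lower with it. The slope on the mitochondrial share (4917 positive, 5016 negative) was called for 1374 and 898 genes without control 1, genistein 1 and genistein 3, and for 3705 to 4983 and 3463 to 5068 with 1 library left out. The cause of these shifts was not tested, though fewer samples entered the fits that left libraries out. Of the 123 genes, 61 kept their call without genistein 3, 63 when control 2 was left out, 69 with control 3 left out, 82 with genistein 1 left out, 109 with control 1 left out and all with genistein 2 left out.

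The labels give the groups shared replicate numbers. Same-numbered genistein and control libraries correlated in their deviations at 0.65 for replicate 1, 0.75 for replicate 2 and -0.23 for replicate 3. The 6 pairs of other numbers lay at -0.77 to 0.50. Nothing in the labels says what the shared number stands for, and a common clutch or batch was not tested. With that number as a replicate block 19 genes were higher and 381 lower in 12 libraries, 503 and 981 in the 6 libraries, and 1693 and 2096 in 12 libraries with the covariate. At 3 libraries a group, a gene at 0 counts could lie at up to 0.270 CPM in the shallowest genistein library and 0.228 CPM in the shallowest control library.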
